A study of Mus musculus with 2 samples.

Results

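The genes described here encode the machinery by which cone photoreceptors turn light into an electrical signal: 2 cone opsins (Opn1sw, Opn1mw), the cone arrestin (Arr3), the 3 subunits of cone transducin (Gnat2, Gnb3, Gngt2), the catalytic and inhibitory subunits of the cone phosphodiesterase (Pde6c, Pde6h) and both subunits of the cone cyclic nucleotide-gated channel (Cnga3, Cngb3). Every probe whose RefSeq accession maps to one of these symbols was taken. This gave 14 probes for 10 genes, of 20659 genes named on the array. The RNA came from retinas of Mef2d KO mice and of wild-type (WT) mice at postnatal day 14, with 1 one-colour Agilent array for each genotype. The labels give no strain, sex, number of animals or further allele, and they do not say which cells lost Mef2d or which part of the gene was removed. With 1 array per genotype there was no replicate, so no p-value is given and no value has a spread between animals. An error after ± comes from the scanner software's own model of a spot and covers no variation between animals. A probe is called detected where the scanner software flags its spot as well above background.

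Cones are the photoreceptors of daylight and colour vision, and in the mouse they are a small minority beside the rods. Light isomerises the opsin, the opsin activates transducin, transducin releases the phosphodiesterase from its inhibitory subunit, and the fall in cyclic GMP closes the channel. Arrestin then binds the phosphorylated opsin and ends its activity. Rods run the same cascade with their own paralogs. The product of Mef2d is a MEF2 family DNA-binding protein that recognises an A/T-rich element and is known to act in photoreceptors together with the homeodomain factor CRX.

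The array hybridised with the RNA labelled Mef2d KO, called the KO-labelled array here, was not lower in Mef2d, whose 2 probes differed from WT by 0.43 ± 0.20 and 0.14 ± 0.21 on the log2 scale. Their position relative to the deletion is unknown, so they check nothing, and each direction below is that of the KO-labelled array, whatever its genotype. Xist, the RNA of the inactive X chromosome, was not detected in WT by either of its 2 probes and stood at least 51.7-fold and 26.4-fold above the WT bound on the KO-labelled array, so the sex make-up of the RNA and the genotype cannot be told apart. The detected share of probe spots was 69.6% on that array and 75.5% on the WT array, and none was saturated.

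Arr3 and Pde6h were far lower on the KO-labelled array, and the other 8 cone genes were within 2-fold. Arr3 was 41.0-fold lower by its first probe and Pde6h was 5.35-fold lower. The other 8 differed by between -0.53 and 0.29, with 5 below 0 and 3 above it. Thus 2 of 10 members passed 2-fold downwards and 0 upwards. Of all 16185 genes detected on both arrays, 1.74% passed 2-fold downwards and 0.618% upwards. That split of 281 lower and 100 higher genes became 170 lower and 151 higher with median scaling of the arrays. All 14 probes were detected on both arrays, so no member was lost to the filter. The median difference of the 10 genes was -0.21, against -0.0060 over all genes. In whole retina, fewer cones and less RNA per cone cannot be told apart for any one gene.

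**Figure D1:**
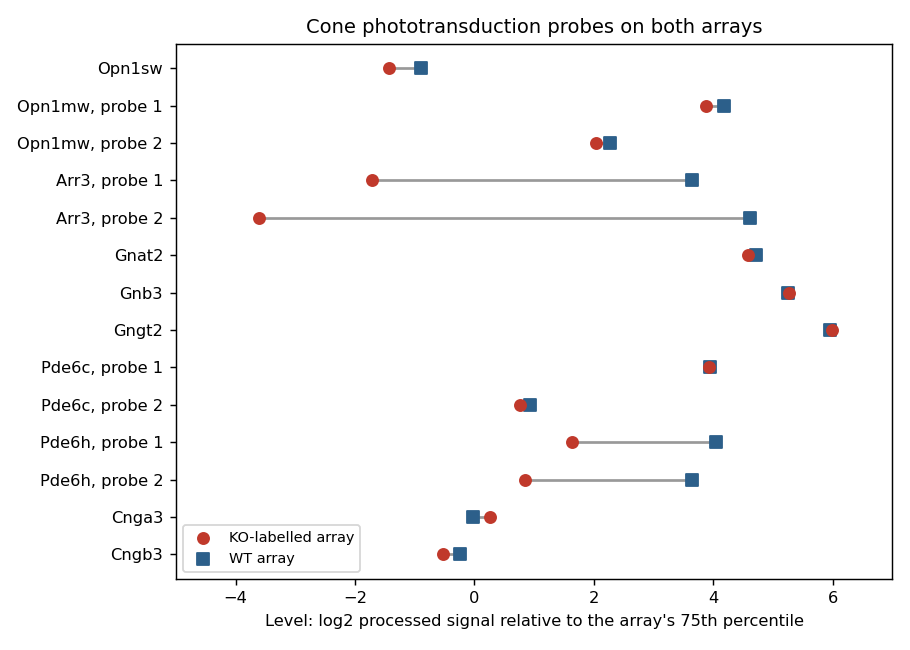
Level of each of the 14 probes on the KO-labelled array (circles) and on the WT array (squares), as log2 processed signal relative to the array's 75th percentile. The gap between the 2 points is the difference of a probe, and it is wide for both probes of Arr3 and both of Pde6h. Levels of different probes are not comparable with each other.

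Arr3 encodes the cone arrestin (RefSeq NM_133205, X chromosome). Its first probe had a processed signal of 260 on the KO-labelled array, against 10044 on the WT array. Its second probe had 70.2 on the KO-labelled array and 19802 on the WT array. Both probes were thus low on the KO-labelled array and high in WT, with differences of -5.36 ± 0.20 and -8.23 ± 0.22, or -4.98 and -7.16 with normexp background correction. The second probe's difference minus the first's was -2.87, far beyond their combined error of 0.30, and the part of the transcript that each reads is unknown. On the KO-labelled array the second probe's spot had a median pixel brightness of 110, beside 34 for its local background. The brightest of 308 negative control spots read 51 on that array, so the probe stood above them. By its first probe, Arr3 had the most negative difference of the 16185 genes with the 75th percentile scaling, and rank 2 from the bottom, behind Guca1b (-5.14), with normexp background correction.

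Pde6h encodes the inhibitory gamma subunit of the cone phosphodiesterase (RefSeq NM_023898, chromosome 6). Its first probe had a processed signal of 2651 on the KO-labelled array, against 13350 on the WT array. Its second probe had 1545 on the KO-labelled array and 10066 on the WT array. The differences were -2.42 ± 0.20 and -2.79 ± 0.20, which put the gene at rank 30 from the bottom of all genes, or at rank 18 with normexp background correction. The second minus the first was -0.37, little more than their combined error of 0.29, and both spots on the KO-labelled array stayed far above the negative controls. Pde6h was thus low on the KO-labelled array and high in WT by both probes, and well measured on each array.

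**Figure D2:**
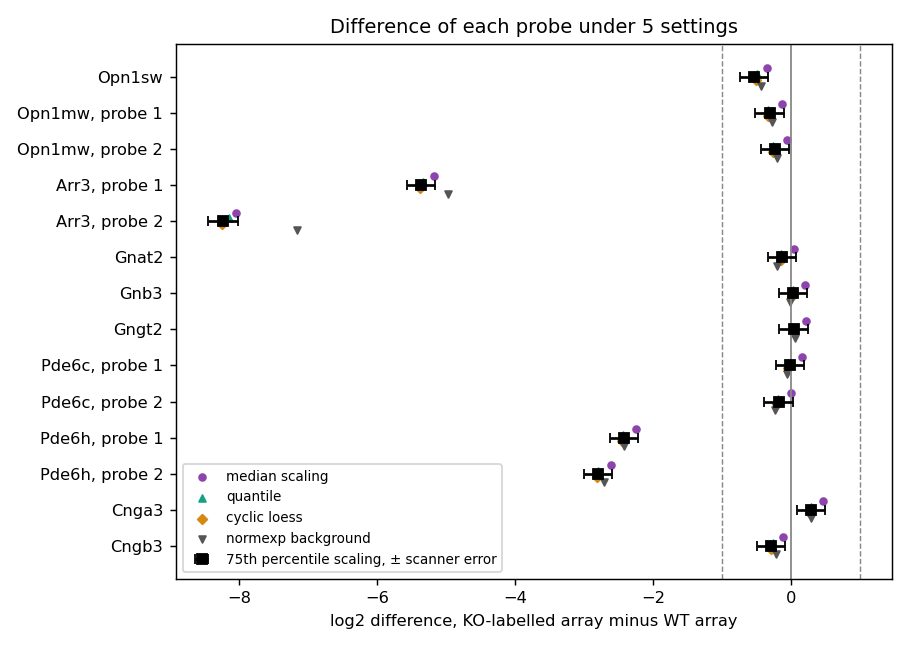
Log2 difference of each of the 14 probes, the KO-labelled array minus WT, with the scanner error (black squares) and under 4 other settings (coloured points). Dashed lines mark 2-fold. The probes of Arr3 and Pde6h lie below -2 in each of these settings, and the other 10 probes lie inside the dashed lines in each of them. The signs of Gnat2, Gnb3 and the first Pde6c probe change between these settings.

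The promoters of Arr3 and Pde6h, the 2 members past 2-fold, are printed beside that of Gnat2, a cone gene of almost equal level on both arrays. The windows hold 250 bases before and 50 after the annotated start and are from RefSeq on GRCm38.p6. Capitals mark matches to a MEF2 consensus element or to the CRX core TAATCC and its reverse complement GGATTA, searched on both strands. The CRX search took this exact core alone, and near variants of it were not counted. The MEF2 consensus allowed more than a single letter at some positions. The 2 motifs share no bases in these windows. The Arr3 window is chrX:100605247-100605546, the Pde6h window chr6:136954273-136954572 and the Gnat2 window chr3:108092816-108093115, all on the plus strand.
Arr3: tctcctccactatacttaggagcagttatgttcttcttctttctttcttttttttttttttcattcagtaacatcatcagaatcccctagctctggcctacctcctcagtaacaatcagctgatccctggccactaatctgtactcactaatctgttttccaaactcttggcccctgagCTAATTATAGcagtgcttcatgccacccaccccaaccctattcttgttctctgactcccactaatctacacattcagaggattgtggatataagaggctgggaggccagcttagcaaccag
Pde6h: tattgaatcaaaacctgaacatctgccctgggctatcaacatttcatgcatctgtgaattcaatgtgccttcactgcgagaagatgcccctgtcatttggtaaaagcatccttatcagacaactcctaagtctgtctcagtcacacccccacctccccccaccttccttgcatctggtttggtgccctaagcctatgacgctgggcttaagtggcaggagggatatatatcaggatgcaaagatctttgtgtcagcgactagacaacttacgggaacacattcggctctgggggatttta
Gnat2: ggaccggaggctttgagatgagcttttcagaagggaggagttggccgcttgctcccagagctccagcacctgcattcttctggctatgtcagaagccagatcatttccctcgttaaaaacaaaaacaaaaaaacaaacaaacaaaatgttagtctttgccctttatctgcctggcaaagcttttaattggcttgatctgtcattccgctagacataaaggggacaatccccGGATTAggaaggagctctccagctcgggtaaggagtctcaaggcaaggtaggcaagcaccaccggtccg
The Arr3 window held 1 MEF2 match, beginning 71 bases before the annotated start, and 0 CRX core matches. The Gnat2 window held 1 CRX core match, beginning 19 bases before its start, and 0 MEF2 matches. The Pde6h window held neither motif. Windows were also present for Opn1sw, Opn1mw and Cnga3, and none of these held either motif. The windows of Gnb3, Gngt2, Pde6c and Cngb3 were not analysed here. Of all 32851 windows of this length in the table, 3.19% held a MEF2 match and 7.06% a CRX core match. A match is a run of letters and not a shown binding site, and a window without one holds only 300 bases around the start.

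The cone opsins differed little. Opn1sw, the short-wavelength opsin (NM_007538, chromosome 6), had a processed signal of 319 on the KO-labelled array and 434 on the WT array. It was 1.45-fold lower (-0.53 ± 0.20), the largest difference among the other 8 genes, and 6.30% of all genes were as low or lower. Opn1mw, the middle-wavelength opsin (NM_008106, X chromosome), had 12600 on the KO-labelled array and 14698 on the WT array by its first probe, a difference of -0.31 ± 0.20. Its second probe had 3528 on the KO-labelled array and 3888 on the WT array, a difference of -0.23 ± 0.20. Both opsins were thus slightly dimmer on the KO-labelled array, and their 3 probes stayed negative under each other scaling of the arrays, at -0.35 for Opn1sw and at -0.13 and -0.050 for Opn1mw with median scaling.

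Cone transducin was nearly equal on both arrays in all 3 of its subunits. Gnat2, the alpha subunit that carries GTP (NM_008141, chromosome 3), had a processed signal of 20484 on the KO-labelled array and 21109 on the WT array, a difference of -0.13 ± 0.20 that turned to 0.047 with median scaling. Gnb3, the beta subunit (NM_013530, chromosome 6), had 33194 on the KO-labelled array and 30587 on the WT array, a difference of 0.031 ± 0.20 that turned to -0.0088 with normexp background correction. Gngt2, the gamma subunit (NM_001038664, chromosome 11), had 54453 on the KO-labelled array and 49887 on the WT array, a difference of 0.039 ± 0.20. Each of these differences is smaller than the scanner error of 1 pair of spots. Gnb3 is also used by ON bipolar cells, so its probe does not read cones alone.

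The phosphodiesterase was uneven between its subunits. Pde6c, the catalytic alpha-prime subunit (NM_033614, chromosome 19), had a processed signal of 13081 on the KO-labelled array and 12437 on the WT array by its first probe. Its second probe had 1449 on the KO-labelled array and 1544 on the WT array. These are differences of -0.015 ± 0.20, which turned to 0.16 with median scaling, and -0.18 ± 0.20. Pde6c was thus level within the error, while Pde6h, whose product binds and holds it inactive in the dark, was lower by 2.42 on the log2 scale.

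The channel subunits had differences of opposite sign. Cnga3, the subunit that can form a channel by itself (NM_009918, chromosome 1), had a processed signal of 1028 on the KO-labelled array and 791 on the WT array. Cngb3, the modulatory subunit (NM_013927, chromosome 4), had 595 on the KO-labelled array and 683 on the WT array. Cnga3 differed by 0.29 ± 0.20 and Cngb3 by -0.29 ± 0.20, and neither sign changed with the scaling. Both are a little above the scanner error. Of all genes, 14.3% were as low as Cngb3 or lower and 92.3% as low as Cnga3 or lower. Cnga3 had rank 1248 from the top.

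**Figure D3:**
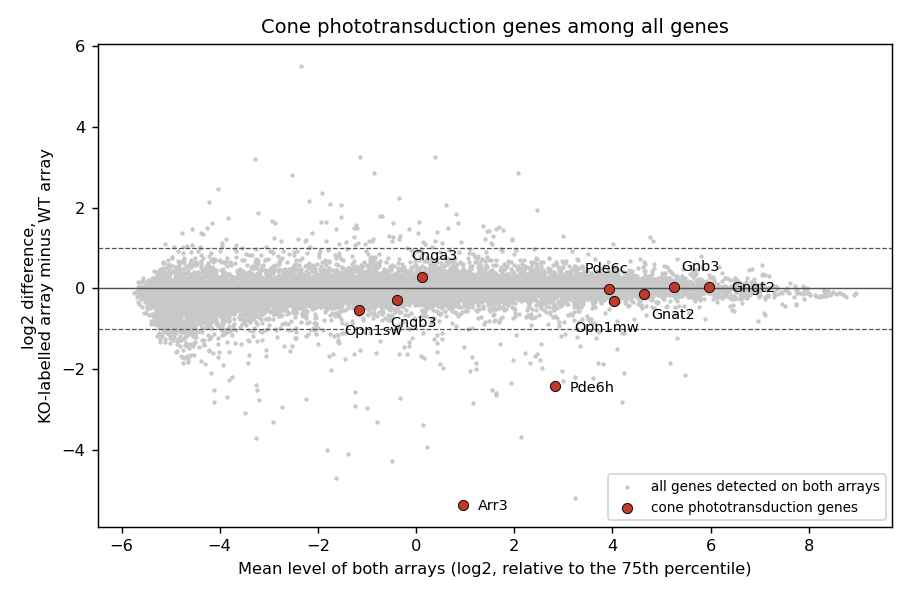
Log2 difference, the KO-labelled array minus WT, against the mean level of both arrays for 16185 genes (grey), with the 10 cone phototransduction genes in red and dashed lines at 2-fold. With this scaling Arr3 lies lowest of all genes (rank 2 with normexp background correction), Pde6h lies at rank 30 from the bottom (rank 18 with normexp), and the other 8 lie inside the main band.

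Median scaling shifted the median of all genes to 0.17, and with it 5 members were negative, against 7 with the 75th percentile. Relative to that shift Gnat2 was at -0.12 and Pde6c at -0.0086. By arithmetic this restates their differences with the 75th percentile relative to the all-gene median, since scaling constants cancel. The count of 2 members past 2-fold downwards and 0 upwards was the same under each of the 8 other settings tried. The series table and the removal of the filter could not have changed it. A single factor per array cancels on rescaling, and all members were detected on both arrays. Median differences of the spots around each member's spot on the slide, within 5 rows and columns, ranged from -0.090 to 0.070. Such medians cannot show a fault confined to the member's own spot, and a fault of the slide was not tested.

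Each cone gene was set beside the rod gene of the same role, in differences only, since scaling constants cancel there. Arr3 minus Sag, the rod arrestin, was -4.54 ± 0.29 on the log2 scale by the first Arr3 probe. It was -5.98 with the probes of a gene averaged, a gap that the error does not cover. Sag itself differed by -0.82 ± 0.20. Pde6h stood below Pde6g, the rod inhibitory subunit, with -2.23 ± 0.29 between them, and Pde6g differed by -0.19 ± 0.20. These were the 2 pairs more than 2-fold apart among the 9 given here.

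The other pairs were closer. Gngt2 lay above Gngt1, the rod gamma subunit, by 0.66 ± 0.29, and Gngt1 differed by -0.62 ± 0.20. Cngb3 lay below Cngb1, the rod channel's second subunit, with -0.62 ± 0.29 between them, since Cngb1 differed by 0.33 ± 0.20. Pde6c stood at -0.39 ± 0.29 relative to Pde6b and at 0.0099 ± 0.29 relative to Pde6a, both catalytic subunits of the rod enzyme. The differences were 0.30 between Gnat2 and Gnat1, 0.27 between Gnb3 and Gnb1, and 0.33 between Cnga3 and Cnga1, each near their error of 0.29. The 3 transducin differences were thus above 0, though those of Gnat2 and Gnb3 were near the error. Gnat2 minus Gnat1 was 0.12 with normexp background correction. In the arrestin and the inhibitory subunit the cone gene lay far below its rod counterpart.

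**Figure D4:**
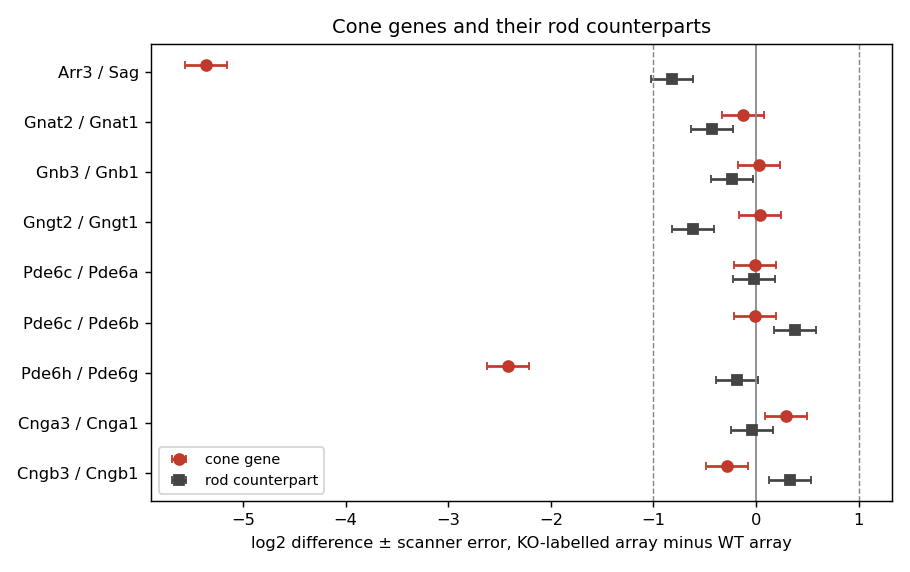
Log2 difference with scanner error, the KO-labelled array minus WT, for 9 pairs of a cone gene (red circles) and the rod gene of the same role (dark squares). The pairs Arr3 / Sag and Pde6h / Pde6g have cone minus rod differences of -4.54 and -2.23, and the other 7 pairs by less than 1.

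Of 10 rod phototransduction genes, all detected on both arrays, 0 passed 2-fold, with 8 negative (6 with median scaling) and a median of -0.21. The all-gene median was -0.0060. The rod genes ran from -0.82 to 0.38, and Arr3 and Pde6h were the 2 cone genes outside that range. The cone genes other than these had a median of -0.073.

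A list of photoreceptor genes used by cones, drawn up around response recovery and calcium feedback, held a similar pair of outlying members. The list is broad and also holds genes with other roles, such as Aipl1, Unc119 and Pde6d. Of 16 measured, 2 were at least 2-fold lower and 0 higher. These were Guca1b, with a level of 0.64 on the KO-labelled array and 5.83 in WT (difference -5.18 ± 0.20), and Guca1a, at 2.50 on the KO-labelled array and 4.71 in WT (-2.21 ± 0.20). Both encode calcium sensors that regulate guanylate cyclase. The other 14 ranged from -0.38 to 0.38, among them the calcium-binding Rcvrn (-0.38), the opsin kinase Grk1 (-0.35) and the retinol dehydrogenase Rdh8 (0.38). The median of the 16 was -0.15, and it was 0.032 with median scaling.

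Other cone-enriched genes were mostly level. Of 10 measured, 1 was at least 2-fold lower and 0 higher. It was Kcnv2, a potassium channel subunit of rods and cones, with levels of 3.67 on the KO-labelled array and 4.78 in WT (-1.10 ± 0.20, and -0.93 with median scaling). Kcne2, another potassium channel subunit, differed by -0.99 (-1.02 with cyclic loess), Cnnm4, a metal transporter, by -0.71 and Otop3, a proton channel, by 0.56. The list median was -0.18, and 0.0029 with median scaling.

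Regulators of cone identity and of photoreceptors had 2 of 19 measured members at least 2-fold lower and 0 higher. These were Mef2c (-1.28 ± 0.23), a paralog of Mef2d that was dim at levels of -4.06 on the KO-labelled array and -2.78 in WT and differed by -0.58 with normexp background correction, and Esrrb (-1.22 ± 0.20), an orphan nuclear receptor of rods. Prdm1, a repressor of bipolar fate, differed by 0.78, Pias3 by 0.62 and Samd7 by 0.44. The receptors of cone opsin patterning, Thrb (-0.16, and 0.021 with median scaling) and Rxrg (-0.21), and the factor Sall3 (0.16) were within 2-fold. The median of the 19 was 0.028, between 0.012 and 0.21 over the scalings and background corrections tried. Thrb, Rxrg and Sall3 also stand in the cone-enriched list, and Slc24a2 stands in it and in the recovery list.

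**Figure D5:**
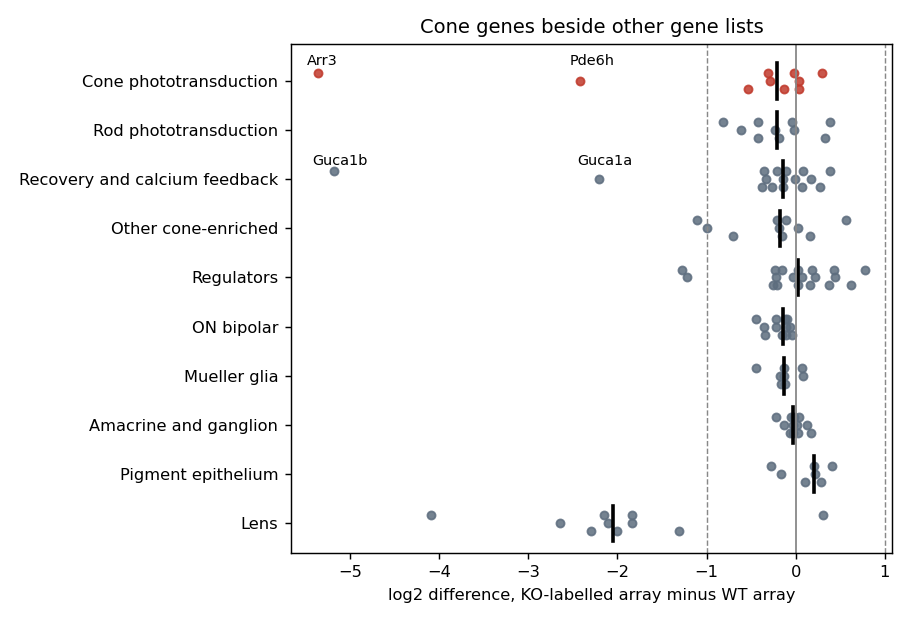
Log2 difference, the KO-labelled array minus WT, of the 10 cone phototransduction genes (red) and of 9 other lists (grey), for genes detected on both arrays. Black bars are list medians, dashed lines mark 2-fold, and the lens list has the lowest median, -2.05.

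Markers of other cells of the eye were read on the same arrays. The retinal lists stayed within 2-fold, and their medians were -0.14 for 12 ON bipolar genes, -0.14 for 8 Mueller glia genes and -0.026 for 12 amacrine and ganglion cell genes, which median scaling turned to 0.038, 0.042 and 0.15. The ON bipolar genes, with which Gnb3 is shared, were led by Gng13 (-0.45), Gpr179 (-0.36) and Pcp2 (-0.34). Mueller glia had Car2 at -0.44, Slc1a3 at -0.18 and Glul at -0.17, and the amacrine and ganglion cell list had Gad1 at -0.22, Nefl at 0.17 and Tfap2a at -0.14. Pigment epithelium genes had a median of 0.20 over the 7 read on both arrays, with Tyrp1 at 0.41, Rgr at 0.28 and Tyr at -0.28.

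Lens genes moved in the same direction as Arr3 and Pde6h. Of 10 detected on both, 9 passed 2-fold downwards and 0 upwards, with a median of -2.05. Lim2, detected in WT only, was 6.60-fold lower by its own undetected value on the KO-labelled array. With normexp background correction Lim2 had a difference of -0.92, within 2-fold. Mip, the lens water channel, differed by -4.09 ± 0.21 and the crystallin genes Crybb2, Cryba1, Cryaa and Crygs by between -2.64 and -2.10. Bfsp1, a lens filament protein, differed by 0.30. The summed scaled signal of the 11 lens genes was 45.2 on the KO-labelled array and 194 in WT, in units of each array's 75th percentile. Some crystallins are also made in retina, and the part of lens RNA in the cone results was not tested.

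Genes beside Arr3 and Pde6h on their chromosomes were within 2-fold. The 3 measured genes on either side of Arr3, in the gene order of GRCm38.p6, were Eda, Awat2 and Igbp1 before it and Pdzd11, Kif4 and Gdpd2 after it. They differed by between -0.35 and 0.15. Around Pde6h, the genes Mgp, Erp27 and Arhgdib before it and Rerg, Ptpro and Eps8 after it differed by between -0.35 and 0.47. Arr3 and Opn1mw are X-linked. Of 592 X-linked genes detected on both arrays, 12 passed 2-fold downwards (2.03%), with a median of -0.047, against 269 of 15589 autosomal genes (1.73%) with a median of -0.0047. The neighbouring genes were chosen after the values of Arr3 and Pde6h were seen.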

How the data were processed

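RNA of WT and Mef2d KO retina, 1 sample each, was labelled with Cy3 and hybridised to 1-colour Agilent arrays, per the labels' protocols. The authors deposited scanner intensities from Agilent Feature Extraction, version 10.10.1.1, with background subtraction and spatial detrending, per the file headers. The deposited series table held these intensities times a single factor for each array (1.76 for Mef2d KO and 1.88 for WT), uncentred and linear, with medians of 136.6 for Mef2d KO and 155.1 for WT. The basis of those factors is unknown.

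Values were log2 of the processed signal relative to each array's 75th percentile (858 for Mef2d KO and 807 for WT). Control spots and outlier spots (126 on the Mef2d KO array and 106 on the WT array) were left out, and spots of a probe were averaged. RefSeq accessions, without version, named 27231 of 55669 probes (48.9%) through the GRCm38.p6 gene table. For a gene with several probes the one with the highest mean over both arrays was used, and counts took genes detected on both. A gene detected on 1 array has a bound, computed against the dim probe's own value or, where higher, the lowest detected value of the dim array. Normexp (offset 50) used the median spot and median background signals in place of means.

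The 10 members and the lists were chosen with earlier results of these data known. Every member, the rod counterparts, and in each list the members past 2-fold (up to 6) and up to 3 more of the largest size were named. Some genes under this rule, and 2 of the 11 cone and rod pairs, are not reported here. With 2 arrays no test between genotypes was possible, and no gene was likened to another by its pattern. The number of arrays limits the precision.

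On simulated data, 1 array against 1 array with scanner noise and 17107 genes, 199 of 200 changed genes and 15 of 16907 unchanged genes passed 2-fold. These counts hold only for the sizes of change put into the simulation, and recovery of changes close to 2-fold was not tested. The 17107 genes were also a different set from the 16185 detected on both arrays. The noise held no variation between animals, and the accuracy of a 2-fold call on the real pair of arrays was not tested. Normalization ran in limma 3.58.1 (R 4.3.3), tables in pandas 2.3.3 and numpy 2.4.6 (Python 3.11.15), and plots in matplotlib 3.10.9.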

Additional observations from a re-analysis of the deposited data

How the results depend on the processing

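Each of the 10 cone genes stayed on its side of 2-fold when arrays were scaled to their median, normalized by cyclic loess or by quantiles, or corrected with normexp. The same held with the 75th percentile taken over detected probes alone and with the average of all probes of a gene. It also held with the series table and with no filter on dim probes, but neither could have changed it. The factor of each array cancels on rescaling, and every member had passed the filter. Arr3 differed by -6.79 with its probes averaged and by -8.23 with its second probe, which is the disagreement of its 2 probes, and its first probe lay between -5.38 and -4.98 and its second between -8.25 and -7.16 under the scalings and background corrections. The share of all genes past 2-fold was less settled, at 281 lower and 100 higher genes. The counts were 170 lower and 151 higher with median scaling, 164 and 156 with quantile normalization, 162 and 154 with cyclic loess, 95 and 63 with normexp background, and 1738 and 225 with no filter, which adds dim probes. For the scalings and normexp the cause was not tested. No paired analysis was possible because each genotype has 1 array, and for the same reason no replicate could be left out. Signal over background limits the second Arr3 probe on the KO-labelled array.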
